A study of Mus musculus with 4 samples.

Results

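Nuclear genes for mitochondrial complex I were examined in kidneys of pristane-injected wild-type (WT) and Zbp1-KO mice. Members were all protein-coding genes whose symbol starts with Nduf, which gave 46 genes of the 54532 in the count files. They comprised 36 complex I subunits, 8 assembly factors of the Ndufaf group, and Ndufa4 and Ndufa4l2, which carry the name but are not counted as complex I subunits today. RNA was taken from whole kidney, with 2 libraries per genotype and 4 in all. All animals were female mice on a C57BL/6J background that received 500 µL pristane, an oil that induces lupus-like disease, into the peritoneum at 8 weeks of age, and kidneys were collected 8 months later. The groups differed in Zbp1, which codes for a sensor of Z-form nucleic acids: Zbp1-KO (Zbp1-/-) mice carried a CRISPR-Cas9 deletion of several of its exons. Kidneys of mice without pristane were not analysed here, so each comparison is between genotypes within the disease model.

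Complex I oxidises NADH at the inner mitochondrial membrane, passes the electrons to ubiquinone and pumps protons. Its matrix arm consists of the N module, which binds NADH, and the Q module, which reduces ubiquinone, while the membrane arm holds the proton pumps. The core of the membrane arm is encoded by mitochondrial DNA (the mt-Nd genes), and all other subunits are made in the cytosol from nuclear genes and imported, so that assembly needs both genomes and a set of dedicated assembly factors. Kidney tubules, above all the proximal tubule and the thick ascending limb, are rich in mitochondria because sodium transport consumes much ATP.

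Total counts ranged from 9878776 to 12921925 per library, of which 49.5% to 61.5% fell on mitochondrially encoded genes. The knocked-out gene had 94 and 125 counts in WT against 18 and 0 in Zbp1-KO, which matched the genotype labels. Its log2 fold change (Zbp1-KO over WT throughout) was −3.64 ± 0.89 (SE), but it was not called in edgeR (quasi-likelihood adjusted p = 0.999). Kidney markers were present in each library, with 529 to 1030 CPM (counts scaled to library size with TMM factors) for Slc34a1 of the proximal tubule and 205 to 383 CPM for Umod of the thick ascending limb. Adipocyte markers differed between genotypes: all 6 tested genes of the list lay above WT in both Zbp1-KO libraries, against 16.0% of all genes. Their summed levels were 80.3 and 110 CPM in WT against 230 and 190 CPM in Zbp1-KO. Cfd was called (log2 fold change 2.20 ± 0.23 SE, edgeR adjusted p = 0.00889), Lep was at 0 counts throughout, and the brown adipocyte gene Ucp1 had 4 and 0 counts in WT against 37 and 7 in Zbp1-KO. In the collecting duct list, 3 of 4 genes lay below WT in both Zbp1-KO libraries, against 16.3% of all genes, and 0 were called. Aqp2 measured 903 and 1060 CPM in WT against 730 and 530 CPM in Zbp1-KO, a log2 fold change of −0.64 ± 0.20 (SE). Slc4a1 overlapped. Markers of the distal convoluted tubule were mixed, with log2 fold changes of −0.70 for Pvalb, 0.09 for Slc12a3 and 0.33 for Calb1. The part of adipocyte or tubule cell RNA in the values of the Nduf genes was not tested. In whole tissue, fewer cells of a type and less RNA per cell cannot be told apart.

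In pooled counts the 46 genes were nearly level between genotypes. The subunits dominate this pool, with 3810 of 4060 summed CPM in WT 1. Single genes such as Ndufaf1 (log2 fold change 0.70) and Ndufa4l2 (−1.59) lay farther from 0, and neither was called. Together the 46 genes took 0.942% and 0.896% of the counts outside mitochondrially encoded genes in WT 1 and WT 2. The shares in Zbp1-KO 1 and Zbp1-KO 2 were 0.931% and 0.903%. The 95% Wilson intervals of these shares, which cover counting error only, ran from 0.934 to 0.950, from 0.888 to 0.905, from 0.923 to 0.939 and from 0.894 to 0.912. Each genotype thus had 1 library near the upper end and 1 near the lower end, and the groups overlapped. All 46 genes passed the low-count filter, and 41 had at least 100 counts in every library.

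No member was called at an adjusted p under 0.05 in the edgeR quasi-likelihood test across 14908 genes, where 0.0134% of all genes were called. At an unadjusted p under 0.05 the count was 0 of 46 members, against 3.88% of all genes. The exact test of edgeR and the Wald test of DESeq2 also gave 0 members at that unadjusted threshold, and limma-voom gave 1, Ndufa4l2. The log2 fold change was above 0 in 25 members and below 0 in 21, and its median was 0.04, with a median of −0.01 over all genes tested. Quartiles were −0.13 and 0.07 for the members, and −0.25 and 0.23 for all genes. Both Zbp1-KO libraries lay above both WT libraries in 8 members (17.4%, against 16.0% of all genes) and below both in 8 members (17.4%, against 16.3%). Only 2 members, Ndufaf1 and Ndufa4l2, had an absolute log2 fold change above 0.5, and 24.2% of all genes did.

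**Figure D1:**
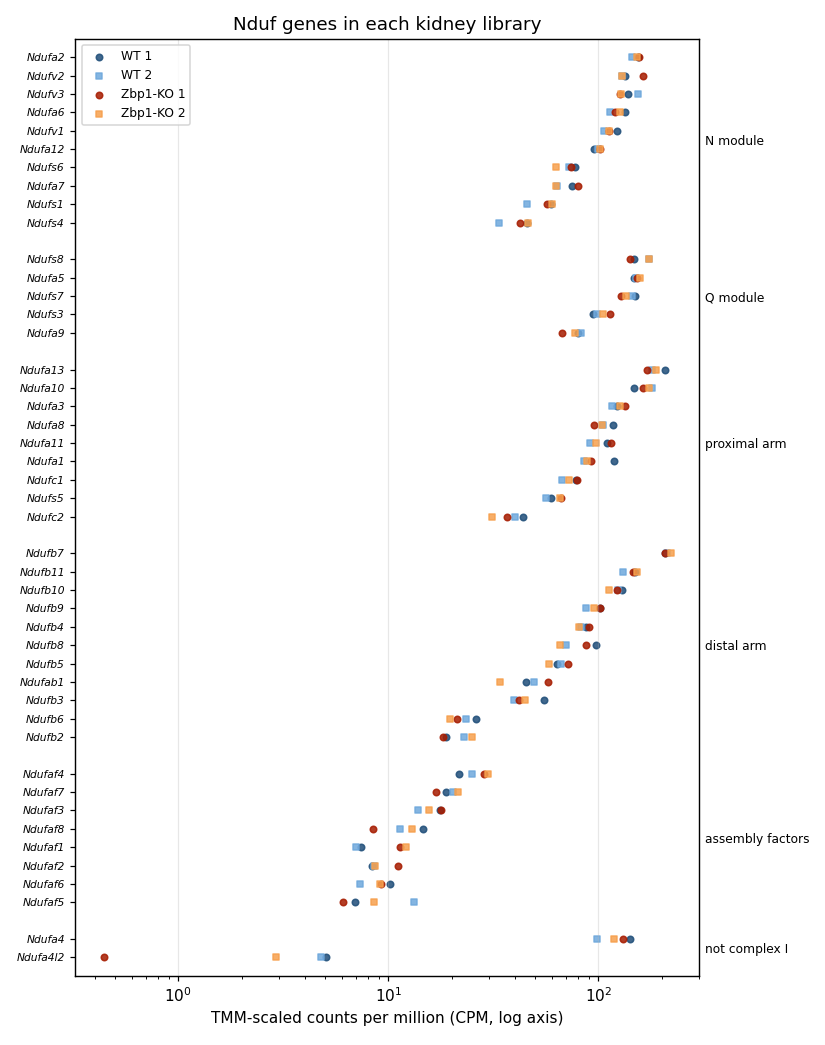
Level of Nduf genes in each of the 4 kidney libraries, as TMM-scaled CPM on a log axis, with genes grouped by their place in complex I. The points of most genes nearly coincide, the Ndufaf genes sit below most subunits, and Ndufa4l2 is spread from 0.442 to 5.07 CPM.

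The size of change that the data leave room for was read from the 95% interval of each log2 fold change. For all 36 subunits this interval stayed within −1 to 1, that is, within 2-fold in either direction, and it included 0 in each of them. The farthest bounds were −0.80, for Ndufb6, and 0.63, for Ndufs4. Over all members the interval stayed within 2-fold in 41 of 46 genes (89.1%), and over all genes tested in 48.0%. The median SE was 0.19 over the members and 0.34 over all genes tested, so the shares differ in precision as well. All 4, 9, 10 and 17 tested genes of complexes II, III, IV and V also stayed within 2-fold. So did 6 of 11 tested assembly factors with other names. The exceptions among the members were Ndufaf1, Ndufaf2, Ndufaf5, Ndufaf8 and Ndufa4l2. Intervals were taken gene by gene and rest on the spread shared across genes in the edgeR model, since a two-sided exact permutation test of 2 libraries against 2 cannot go below p = 0.333.

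**Figure D2:**
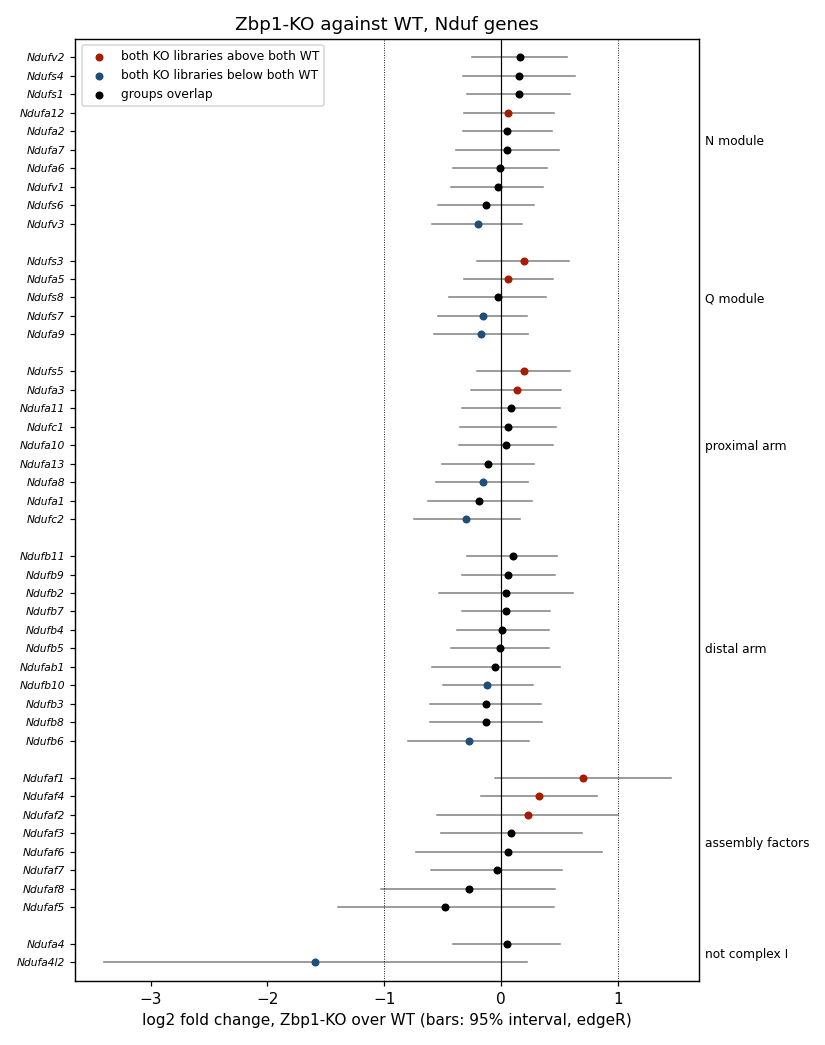
Log2 fold change of Nduf genes, Zbp1-KO over WT, with its 95% interval from edgeR as a bar. Dotted lines mark 2-fold. Bars of all subunits shown stay between the dotted lines and cross 0, while Ndufaf1 and Ndufa4l2 lie farthest from 0 on either side.

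The 7 core nuclear subunits, which carry the flavin and the iron-sulfur clusters along the electron path, were examined next. Ndufv1, which binds NADH and the flavin, measured 123 and 106 CPM in WT against 112 and 112 CPM in Zbp1-KO. Its log2 fold change was −0.03 ± 0.18 (SE). Ndufv2, its iron-sulfur partner, measured 133 and 129 CPM in WT against 162 and 130 CPM in Zbp1-KO. Here Zbp1-KO 1 stood above the other libraries, which were almost equal, and the log2 fold change was 0.16 ± 0.19 (SE). Ndufs1, the largest subunit, measured 59.4 and 45.9 CPM in WT against 56.7 and 60.2 CPM in Zbp1-KO, and WT 2 was the low library. In the Q module, Ndufs8 measured 148 and 174 CPM in WT against 142 and 173 CPM in Zbp1-KO, and the groups overlapped. Ndufs3 lay above WT in each Zbp1-KO library, at 93.9 and 98.8 CPM in WT against 114 and 105 CPM in Zbp1-KO, a log2 fold change of 0.19 ± 0.18 (SE). Ndufs7, which holds the last iron-sulfur cluster before ubiquinone, was lower in both, with 150 and 144 CPM in WT against 128 and 135 CPM in Zbp1-KO, a log2 fold change of −0.16 ± 0.18 (SE). Over the 7 genes the median was 0.07, and 5 of them overlapped between genotypes, as did 10098 of all 14908 genes tested.

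Accessory subunits surround the core and stabilise it. In the N module (10 genes) the median log2 fold change was 0.05, with a range of −0.20 (Ndufv3) to 0.16 (Ndufv2). The groups overlapped in 8 of these genes, and in 10098 of all 14908 genes tested. Ndufs4, whose loss in mice gives a model of Leigh syndrome, measured 45.9 and 33.7 CPM in WT against 42.2 and 46.2 CPM in Zbp1-KO. WT 2 was again the low library. In the Q module (6 genes) the median was 0.01, from −0.17 (Ndufa9) to 0.19 (Ndufs3). Here the groups were separate in 4 genes, Ndufs3 and Ndufa5 upward and Ndufs7 and Ndufa9 downward, where 16.0% of all genes were separate upward and 16.3% downward. Ndufa5 measured 148 and 151 CPM in WT against 152 and 158 CPM in Zbp1-KO, so groups that did not overlap were still only 0.06 apart on the log2 scale.

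The membrane arm showed the same narrow range. Its proximal part (9 genes) had a median log2 fold change of 0.04, from −0.30 (Ndufc2) to 0.19 (Ndufs5). Ndufc2 measured 43.6 and 39.9 CPM in WT against 36.7 and 31.1 CPM in Zbp1-KO, with a log2 fold change of −0.30 ± 0.21 (SE, edgeR adjusted p = 0.999), and the groups did not overlap. Ndufs5 measured 59.6 and 56.1 CPM in WT against 66.2 and 65.8 CPM in Zbp1-KO, with a log2 fold change of 0.19 ± 0.19 (SE). The distal part (11 genes) had a median of −0.01, from −0.28 (Ndufb6) to 0.10 (Ndufb11). Ndufb6 measured 26.2 and 23.3 CPM in WT against 21.2 and 19.6 CPM in Zbp1-KO, below WT in both libraries. The acyl carrier protein Ndufab1, which serves mitochondrial fatty acid synthesis as well as complex I, varied most within a genotype among the subunits. It measured 45.4 and 49.2 CPM in WT against 57.4 and 33.9 CPM in Zbp1-KO, so both WT values lay between those of Zbp1-KO.

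Differences between replicates were set beside those between genotypes. The median absolute difference over the 36 subunits was 0.10 on the log2 CPM scale between genotypes, 0.16 between the WT libraries and 0.11 between the Zbp1-KO libraries. In 35 of 46 members the wider of both replicate gaps exceeded the genotype difference, as it did in 79.1% of all genes tested. The measures are unlike, since a genotype difference is between means of 2 libraries and a replicate gap between single libraries. Single libraries vary more than means, so these values cannot rank both kinds of spread. WT 1 exceeded WT 2 in 31 of 46 members, and Zbp1-KO 1 exceeded Zbp1-KO 2 in 23. Over all 14908 genes tested these numbers were 7488 and 7486.

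Assembly factors help to build the complex and are absent from the finished enzyme. The 8 Ndufaf genes had a median log2 fold change of 0.07. Zbp1-KO lay above WT without overlap in 3 of the 8 and below in 0, against 16.0% and 16.3% of all genes. Their counts were low, and SE ran from 0.23 to 0.42, against 0.17 to 0.26 for the subunits. Ndufaf1 (ENSMUSG00000027305, chromosome 2, 119655446 to 119662827, minus strand, GRCm38) encodes a factor that works with Ecsit, Acad9 and Tmem126b on the membrane arm. It had 92 and 82 counts in WT against 155 and 112 in Zbp1-KO, which is 7.40 and 7.01 CPM against 11.4 and 12.1 CPM. Both Zbp1-KO libraries stood clear of both WT libraries. The log2 fold change was 0.70 ± 0.34 (SE), with a 95% interval of −0.05 to 1.45 and an adjusted p of 0.999 in edgeR, and it stayed between 0.66 and 0.74 with any 1 library left out.

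Ndufaf4, which acts with Ndufaf3 on the Q module, measured 21.7 and 25 CPM in WT against 28.4 and 29.9 CPM in Zbp1-KO, a log2 fold change of 0.32 ± 0.23 (SE). Ndufaf3 overlapped between genotypes, with 17.6 and 13.9 CPM in WT against 17.8 and 15.6 CPM in Zbp1-KO. Ndufaf2, a paralog of the subunit Ndufa12 that holds its place during assembly, measured 8.36 and 8.55 CPM in WT against 11.1 and 8.62 CPM in Zbp1-KO. The groups were separate there only because Zbp1-KO 2 was slightly above WT 2. Ndufaf5, which modifies Ndufs7, measured 6.92 and 13.3 CPM in WT against 6.05 and 8.51 CPM in Zbp1-KO, and its partner Ndufaf8 14.6 and 11.3 CPM against 8.41 and 12.9 CPM. Each had a low Zbp1-KO 1 value and overlapping groups, with log2 fold changes of −0.48 ± 0.42 and −0.28 ± 0.34 (SE). Without WT 2 the value of Ndufaf5 was 0.06, and Ndufaf8 was at −0.01 without Zbp1-KO 1 and at −0.63 without Zbp1-KO 2. Ndufaf6 and Ndufaf7, the latter a methyltransferase, had log2 fold changes of 0.06 and −0.04 with overlapping groups.

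The pair outside complex I differed from each other. Ndufa4, now assigned to complex IV, measured 142 and 98.2 CPM in WT against 131 and 118 CPM in Zbp1-KO, with a log2 fold change of 0.05 ± 0.21 (SE). Ndufa4l2 (ENSMUSG00000040280, chromosome 10, 127514967 to 127517154, plus strand, GRCm38), a paralog known as a hypoxia-inducible gene, had 63 and 56 counts in WT against 6 and 27 counts in Zbp1-KO. These corresponded to 5.07 and 4.79 CPM in WT against 0.442 and 2.91 CPM in Zbp1-KO. The WT libraries were nearly equal, both Zbp1-KO libraries were lower, and Zbp1-KO 1 was the lowest by far. The log2 fold change was −1.59 ± 0.83 (SE), with a 95% interval of −3.40 to 0.22 and an adjusted p of 0.999 in edgeR. Library choice moved it most: it was −0.77 without Zbp1-KO 1 and −3.46 without Zbp1-KO 2 (edgeR adjusted p of 0.805 and 0.121). An exon of Ndufa4l2 overlaps the antisense gene Shmt2, whose log2 fold change was −0.12, and the strand setting of the counting was not given in the sources used here.

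Levels were then compared between genes per exon length, as RPKM (TMM-scaled CPM per kilobase of annotated exon, mean over the 4 libraries). RPKM of the 36 subunits spread from 3.77 (Ndufb2) to 265 (Ndufa2), with quartiles of 41.8 and 95.8 and a median of 61.4. The next highest were Ndufa1 with 229 and Ndufb11 with 159. Ndufb2, Ndufab1 (6.76) and Ndufs1 (6.87) were the lowest of the subunits. Annotated exon length weighs on this order. The exon union was 8086 bases for Ndufs1, whose longest coding transcript had 2661, and on the latter length Ndufs1 reached 20.9 RPKM, Ndufab1 13.4 and Ndufb2 4.85. The subunit median was 92.7 RPKM on that length, and Ndufb7 was then the highest, with 340. Spearman's rho between both scales was 0.811 over the 36 genes, which are not independent replicates.

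The assembly factors lay in a narrower and lower band, from 3.08 (Ndufaf2) to 14.1 RPKM (Ndufaf8), with a median of 6.52. On the length of the longest coding transcript they ranged from 6.41 (Ndufaf1) to 15.1 RPKM (Ndufaf8), with a median of 7.88, and Ndufaf2 was then at 13.5 RPKM, second to Ndufaf8. Among all 46 members Ndufa4l2 was the lowest on both lengths, with 3.02 and 3.54 RPKM. Levels kept nearly the same order in each library, with Spearman's rho between any pair of libraries of 0.982 to 0.990 over the 46 genes. Proximal membrane-arm genes had the highest median (94.5 RPKM), ahead of the Q module (77.6), the N module (53.3) and the distal arm (44.6), with ranges that overlapped widely. On the length of the longest coding transcript, a comparison added after the data were seen, the Q module came first (124 RPKM), followed by the proximal arm (112), the N module (88.2) and the distal arm (60.1).

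**Figure D3:**
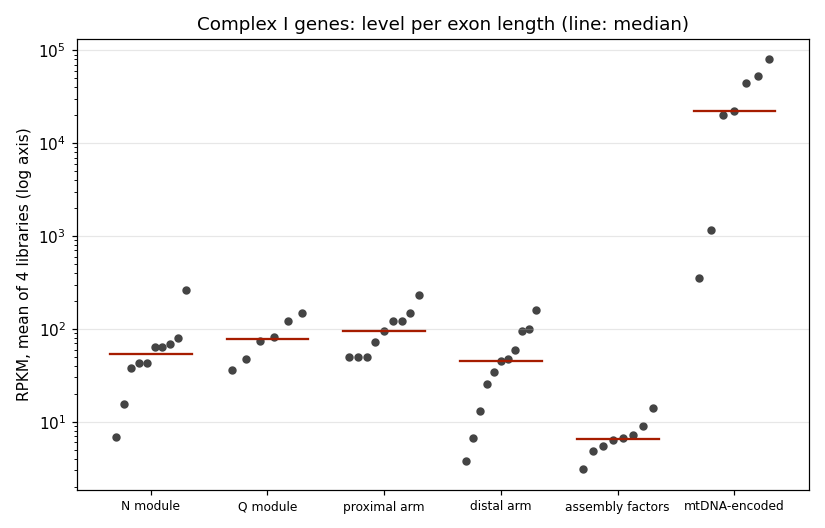
Level per exon length of each complex I gene (RPKM, mean of the 4 libraries, log axis), by module, with the median as a line. Nuclear subunits centre between 44.6 and 94.5 RPKM, assembly factors lie lower at a median of 6.52, and the mitochondrially encoded genes lie above, at a median of 22100 RPKM.

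Mitochondrially encoded subunits of the same enzyme stood apart from the nuclear ones. The 7 mt-Nd genes ranged from 353 RPKM (mt-Nd4l) to 79800 RPKM (mt-Nd1). All 7 had a log2 fold change below 0, with a median of −0.26, although 0 were called and 2 (mt-Nd3 and mt-Nd4l) had an unadjusted p under 0.05 in edgeR. mt-Nd5, the most distal pump, measured 40800 and 44100 CPM in WT against 23000 and 39000 CPM in Zbp1-KO, a log2 fold change of −0.45 ± 0.24 (SE). Per library, the score of the mt-Nd list (mean over genes of log2 CPM minus the mean of the gene over the 4 libraries) was 0.16 and 0.25 in WT and −0.51 and 0.10 in Zbp1-KO. Zbp1-KO 1 was thus the library that stood farthest apart, and the score of the nuclear subunits in it was 0.02. That library also had the lowest share of counts on mitochondrially encoded genes (49.5%, against 57.4% and 61.5% in WT and 59.5% in Zbp1-KO 2). In 3 of the 7 genes both Zbp1-KO libraries lay below both WT libraries, against 16.3% of all genes, and 4 overlapped. These were mt-Nd5, mt-Nd3 and mt-Nd4l. mt-Nd3 measured 435 and 532 CPM in WT against 264 and 368 CPM in Zbp1-KO. For mt-Nd4l the values were 151 and 117 CPM against 51.8 and 99.7 CPM. Summed CPM of the mt-Nd genes was 63.6 and 77.1 times that of the nuclear subunits in WT and 48.0 and 71.6 times in Zbp1-KO. The proximal tubule list (5 genes) had scores of 0.16 and 0.21 in WT and −0.55 and 0.18 in Zbp1-KO, with summed levels of 1380 and 1540 CPM in WT against 983 and 1510 CPM in Zbp1-KO, so it was low in the same library, although Lrp2 of that list was not, with 262 and 332 CPM in WT against 332 and 337 CPM in Zbp1-KO. The thick ascending limb list (2 genes) went the other way in Zbp1-KO 1, with scores of 0.10 and −0.28 in WT and 0.47 and −0.29 in Zbp1-KO. The part of either cell type in the mt-Nd values was not tested. Without Zbp1-KO 2, the log2 fold changes were −0.89 for mt-Nd5 and −1.38 for mt-Nd4l. Those values rest on Zbp1-KO 1 alone in its group, the library with the lowest score of the mt-Nd list. Values of these genes without Zbp1-KO 1 are not given here. Per exon length mt-Nd4l was the lowest of the 7, while mt-Nd4 was at 44100 RPKM with a log2 fold change of −0.26. How reads were assigned between these genes in counting was not tested.

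**Figure D4:**
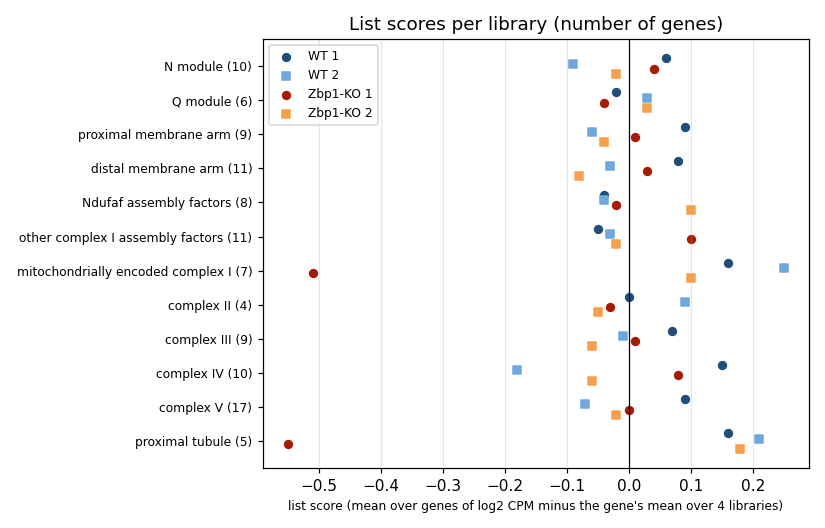
List scores in each library (mean over genes of log2 CPM minus the mean of each gene over the 4 libraries), with the number of genes in parentheses. Scores of nuclear complex I modules lie between −0.09 and 0.10, whereas Zbp1-KO 1 lies at −0.51 for mitochondrially encoded complex I and at −0.55 for the proximal tubule list.

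Other genes of the pathway gave similar values to the nuclear subunits. Of 11 tested assembly factors with other names, 0 were called, and the median log2 fold change was 0.13, from −0.34 (Timmdc1) to 0.43 (Nubpl). Foxred1 lay above WT in each Zbp1-KO library, at 19.5 and 20.3 CPM in WT against 24.8 and 26.9 CPM in Zbp1-KO, a log2 fold change of 0.38 ± 0.23 (SE). Ecsit, Acad9 and Tmem126b, which act with Ndufaf1, had log2 fold changes of −0.01, 0.03 and 0.13, and their groups overlapped. For complexes II, III, IV and V, 0 of 4, 9, 10 and 17 tested genes were called, with medians of −0.11, −0.05, 0.01 and −0.05. Complex IV overlapped between genotypes in all 10 genes, whereas over all genes tested 10098 of 14908 did. WT 1 exceeded WT 2 in all 10 as well, whereas over all genes tested it did in 7488 of 14908.

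Regulators of mitochondrial gene expression were examined as a list of 10 genes, of which 0 were called. The coactivator Ppargc1a measured 31.4 and 33.3 CPM in WT against 32.6 and 34.4 CPM in Zbp1-KO, a log2 fold change of 0.05 ± 0.21 (SE). Polrmt, the RNA polymerase of mitochondria, measured 32.5 and 29.6 CPM in WT against 20.9 and 23.2 CPM in Zbp1-KO. It was the only gene of the list at an unadjusted p under 0.05 in edgeR, with a log2 fold change of −0.49 ± 0.23 (SE, adjusted p = 0.999). Tfam, which packages mitochondrial DNA, measured 15 and 10 CPM in WT against 16.9 and 16.9 CPM in Zbp1-KO. Both Zbp1-KO libraries lay below both WT libraries in 3 of the 10 genes and above in 2, against 16.3% and 16.0% of all genes. Those below were Polrmt, Nrf1 (log2 fold change −0.36 ± 0.30 SE) and Yy1 (−0.23 ± 0.20 SE).

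Sequence around the start sites was searched for short motifs of factors known to act on respiratory chain genes. RefSeq promoter windows (GRCm38.p6, 250 bases before to 50 after the start) were matched by symbol for 40 of 46 members, and 6 had no entry. The letters searched, on both strands, were GCGCATGC for NRF1, TCAAGGTCA for ERR factors, CCGGAAGT for ETS factors and AAGATGGC for YY1. The NRF1 letters were found in 5 of 40 members (12.5%) and in 3.05% of all 27025 genes in the table. YY1 letters were found in 8 members (20%) and 3.19% of all genes, ETS letters in 1 member (2.5%) and 4.31%, and ERR letters in 0 members and 0.466%. A match is a description of the letters and not of binding. The windows of 3 members with the NRF1 letters are shown, with the match in capitals. They were chosen because Ndufaf4 is among the assembly factors that were higher in both Zbp1-KO libraries and Ndufa6 and Ndufa11 have overlapping groups. Ndufa8 and Ndufaf5 also hold these letters but are not shown. Ndufa8 was below WT in both Zbp1-KO libraries (log2 fold change −0.16), and Ndufaf5 overlapped (−0.48). In Ndufa11 and Ndufaf4 the letters continue into an overlapping match on the other strand, and Ndufaf4 held a further match just after its start.
Ndufaf4, chr4:24897934-24897985, plus strand: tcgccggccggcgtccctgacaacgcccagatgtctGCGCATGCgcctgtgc
Ndufa6, chr15:82354359-82354410, minus strand: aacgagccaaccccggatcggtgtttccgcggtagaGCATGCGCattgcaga
Ndufa11, chr17:56717666-56717717, plus strand: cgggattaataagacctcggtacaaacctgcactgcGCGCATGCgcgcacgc

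All 8 matches of the YY1 letters lay on the strand of the gene and after the start, beginning between bases 11 and 39 of the transcript. In 7 of the 8 the ATG inside the match was an annotated start codon, so the letters coincide there with the beginning of the protein. Ndufaf8 was the exception. The windows of Ndufa3 and Ndufc1, where the match holds the start codon, and of Ndufaf8, where it does not, are shown for comparison, with the match in capitals.
Ndufa3, chr7:3617359-3617402, plus strand: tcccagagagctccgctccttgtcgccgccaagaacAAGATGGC
Ndufc1, chr3:51408926-51408969, minus strand: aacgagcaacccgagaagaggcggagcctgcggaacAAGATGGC
Ndufaf8, chr11:120098908-120098959, plus strand: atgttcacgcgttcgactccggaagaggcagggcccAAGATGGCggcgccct
Ndufa3 had a log2 fold change of 0.13, Ndufc1 of 0.06 and Ndufaf8 of −0.28, and none was called.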

How the data were processed

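Poly(A)-selected kidney RNA was sequenced in 4 libraries, 2 per genotype, grouped by the sample titles. The authors used Trimmomatic for trimming, HISAT2 for alignment to mm10 and featureCounts for counting, keeping pairs that mapped uniquely. They deposited raw counts per Ensembl gene, without normalization. Program versions, annotation release and strand setting were not given in the sources used here. Because only unique pairs were counted, genes with processed pseudogenes may lose reads, and exons of 19 of the 46 members overlap another gene (17 an antisense gene). Duplicate reads could not be recognised, and the Wilson intervals of shares cover counting error only, whereas the intervals of fold changes include the spread between libraries. The labels do not say whether each library came from its own animal, and p-values then measure the spread between libraries.

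Symbols, positions and exon lengths came from GENCODE M21 (GRCm38), in which 37 of 54532 IDs had no match. Genotypes were compared by the two-sided quasi-likelihood test of edgeR 4.0.16 under R 4.3.3, using filterByExpr (minimum count 10, minimum total 15), TMM factors, genotype as the only term and Benjamini-Hochberg adjustment over 14908 genes. Calls needed an adjusted p under 0.05. SE is the absolute log2 fold change over the square root of F. The pipeline was tested on simulated data. The floor for a count of 0 was 3 counts (0.221 to 0.323 CPM). Alternatives were other scalings and filters, the replicate number as a block, DESeq2 1.42.0, limma 3.58.1 (voom), the exact test of edgeR, another length and each library left out. Members, lists and tests were chosen with earlier results of these data known. Genes named in full were Zbp1, core subunits, Ndufaf genes, Ndufa4, Ndufa4l2, members at an unadjusted p under 0.05, the 5 largest changes per direction and the 3 highest and lowest levels. Others were chosen after their values were seen. A single member is counted in all totals but is not reported here on its own, in text or plots.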

Additional observations from a re-analysis of the deposited data

Results flagged for a closer look

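Rows with an Nduf symbol that are not annotated as protein-coding were left out of the comparisons, and 4 of these 5 held counts above the limit of 3 in every library. The 46 members held no gene with the symbol Ndufb1. Ndufb1-ps, annotated as a noncoding RNA on chromosome 12, had 333 and 279 counts in WT against 382 and 199 in Zbp1-KO. Its lowest library thus held 199 counts, and its log2 fold change was −0.03 ± 0.24 (SE). The processed pseudogene Ndufab1-ps had 47 and 54 counts in WT against 88 and 75 in Zbp1-KO, a log2 fold change of 0.79 ± 0.47 (SE, edgeR adjusted p = 0.999). Ndufb4c had 66 and 68 counts in WT against 68 and 65 in Zbp1-KO. Ndufs6b had 16 and 7 counts in WT against 6 and 14 in Zbp1-KO. Ndufa11b had 0 counts in each library.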

How the results depend on the processing

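No Nduf gene was called under any of the 13 alternatives, all 46 were tested in each, and 0 to 1 (Ndufa4l2) had an unadjusted p under 0.05. The subunit median (0.03) ran from −0.06 to 0.05 and the assembly factor median (0.07) from 0.04 to 0.21 with 1 library left out, the former lowest without WT 2 and the latter highest without WT 1. With all libraries kept, both stayed within the replicate spread of their values above. The number of subunits whose 95% interval stayed within 2-fold, a result added after the data were seen, was 35 or 36 in the edgeR quasi-likelihood fits, and it was not computed for the other tests. Genes above 0 numbered 25, and 19 to 28 with 1 library left out, the lowest without WT 2. With the longest coding transcript as length, the subunit median level was 92.7 RPKM in place of 61.4, as those lengths are shorter.

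Calls in the other respiratory chain lists went from 0 to 1 (mt-Nd4l, lower) when every gene with a count was tested, and ran from 0 to 2 with 1 library left out. Zbp1 was called with all genes of at least 1 count (−3.65, edgeR adjusted p = 2.86e-05) and with the exact test (−3.67, adjusted p = 0.0110). With 1 library left out it ran from −4.83, a bound at 3 counts, to −2.78, and it was called without Zbp1-KO 1 (adjusted p = 0.00156) and without Zbp1-KO 2 (adjusted p = 0.0449), but not without either WT library. The cause was not tested. In those fits the lone library of a group was taken to vary like the others.

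The replicate numbers are shared by both genotypes but nothing in the labels pairs the samples, and the deviations of same-numbered libraries from their group means did not correlate (0.00399 across genes, which are not independent). With the replicate number as a block, 0 Nduf genes were called, the subunit median was 0.02 and the assembly factor median 0.08, Zbp1 was at −3.96, and calls over all genes went from 2 to 11. Over the other alternatives that number ran from 0 without WT 1 to 41 with all genes of at least 1 count (14 with the exact test, 9 with DESeq2, 7 with limma-voom, 37 without Zbp1-KO 2).

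Of 312 values of single named genes, 17 changed sign, each with 1 library left out and in genes not called. With 1 library left out, Ndufa1 ran from −0.41 to 0.06, Ndufa2 from 0 to 0.09, Ndufa4 from −0.20 to 0.33, Ndufaf3 from −0.08 to 0.25, Ndufaf5 from −0.88 to 0.06, Ndufaf6 from −0.16 to 0.31, Ndufaf7 from −0.22 to 0.12, Ndufb2 from −0.21 to 0.25, Ndufs1 from −0.03 to 0.34, Ndufs8 from −0.19 to 0.10, Ndufv1 from −0.14 to 0.07 and Ndufv2 from −0.02 to 0.30. Depth limits the assembly factors and Ndufa4l2 most, as 5 members had under 100 counts in some library.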
